A study of Mus musculus with 3 samples.

Results

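The genes described here are the zinc finger genes whose symbol is Zfp followed by a number, with or without a further letter. Members were taken by symbol from the platform annotation of the array, without Zfp352 and Zfp42, and the rule itself uses no measured value. The rule found 373 probes for 276 genes, out of 16593 genes with a symbol on the array. Of these genes 199 had 1 probe, 60 had 2, 15 had 3 and 2 had more, up to 5 probes. Each gene was read at its brightest probe, by the mean of the 3 signals.

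Transcripts were measured on 3 Illumina mouse BeadChip arrays of 2-cell embryos of the strain labelled F1B6C3H, to compare embryos from developmentally incompetent and competent eggs. The embryos named 2-cell NSN (2 arrays, called NSN-a and NSN-b) came from oocytes without the ring of heterochromatin around the nucleolus, which were isolated from the ovaries of PMSG-primed females, matured in culture to MII and inseminated in vitro. The 2-cell ctrl embryos (1 array) came from ovulated MII oocytes of the same strain inseminated in the same way. No genetic change distinguished the groups. The methods do not give how the ovulated control oocytes were obtained, so a difference in hormone treatment is possible. The effects of oocyte type, of culture and of any such difference cannot be told apart. With 1 control array there was no replicate check on that side, and nothing in the labels says that both 2-cell NSN arrays held separate pools of embryos, so p-values and spreads here may measure technical variation only. An array signal also cannot tell fewer transcripts per embryo from less RNA.

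C2H2 zinc finger proteins hold short repeats that fold around a zinc ion, and neighbouring fingers together read a stretch of DNA or, in some members, bind RNA. Many of the Zfp genes code for KRAB zinc finger proteins, which recruit the corepressor Trim28 (KAP1) and histone methyltransferases to silence transposable elements and to protect imprinted genes in the egg and the early embryo. Others bear no KRAB domain and act in transcription, mRNA decay, ribosome maturation or mitosis, so the symbol names a kind of protein fold and not one pathway.

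Signals were deposited as background-subtracted intensities on a linear scale, on which an unexpressed gene lies around 0 and can be negative. A gene was taken as above background where its signal reached the value that a detection p value of 0.01 corresponds to on that array. This limit was 8.57 on NSN-a, 8.28 on NSN-b and 6.10 on 2-cell ctrl, where the limit of NSN-b was assumed from that of NSN-a because no p value was held for it. Column medians were 0.0443, 0.0195 and 0.0916 in the same order, and the highest signals were 348, 348 and 2113. Of 25697 probes 193 (0.751%), 203 (0.790%) and 1085 (4.22%) were above background on NSN-a, NSN-b and 2-cell ctrl. Markers of the oocyte and early embryo were above background for 3, 4 and 7 of the 12 found on these arrays, with summed signals of 93.1, 90.4 and 499. The highest control signals among them were those of Tcl1 (228), Bmp15 (102) and Oosp1 (94.0). Zp1, Zp2, Padi6, Npm2 and Btg4 were below background on every array. Of 9 markers of cumulus and granulosa cells none was above background on any array (summed signals 11.5, 4.37 and 5.28), nor was any of 6 markers of sperm and testis (−2.22, 8.51 and 1.47). Of 6 genes of the genome activation of the 2-cell stage none was above background on either 2-cell NSN array, against 2 on 2-cell ctrl. These were Tcstv1 (18.3 in 2-cell ctrl) and Tcstv3 (41.6 in 2-cell ctrl). Zscan4c, Usp17la, Tdpoz4 and Eif1a were below background on every array, the control included. Over all genes 1.05%, 1.11% and 5.61% were above background on NSN-a, NSN-b and 2-cell ctrl. The part of these differences in what follows was not tested.

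The bases before the transcription start are shown for the pair of Zfp genes called lower in 2-cell NSN and for the one above background on all arrays, and these 3 were chosen after their values were seen. Each run holds the 250 bases before an annotated start (RefSeq, GRCm38.p6), read 5′ to 3′ on the strand of the gene, with motifs found on either strand in capitals. The motifs searched were the CCAAT box, the GC box with the letters GGGCGG and the TATA box with the letters TATAAA. Zfp131 has a further annotated start downstream, and the run before its upstream start is given. The Zfp131 run lies at chr13:119790733-119790982 on the minus strand, the Zfp212 run at chr6:47920318-47920567 on the plus strand and the Zfp709 run at chr8:71881818-71882067 on the plus strand.
Zfp131: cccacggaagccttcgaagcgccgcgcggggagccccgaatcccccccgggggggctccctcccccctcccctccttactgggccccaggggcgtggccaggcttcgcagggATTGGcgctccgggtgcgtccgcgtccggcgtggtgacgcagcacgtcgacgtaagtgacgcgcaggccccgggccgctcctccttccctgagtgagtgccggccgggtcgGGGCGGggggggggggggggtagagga
Zfp212: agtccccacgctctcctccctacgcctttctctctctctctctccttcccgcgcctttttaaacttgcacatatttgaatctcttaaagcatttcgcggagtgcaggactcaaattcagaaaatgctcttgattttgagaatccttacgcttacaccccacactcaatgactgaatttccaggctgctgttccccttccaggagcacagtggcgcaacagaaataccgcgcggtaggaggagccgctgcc
Zfp709: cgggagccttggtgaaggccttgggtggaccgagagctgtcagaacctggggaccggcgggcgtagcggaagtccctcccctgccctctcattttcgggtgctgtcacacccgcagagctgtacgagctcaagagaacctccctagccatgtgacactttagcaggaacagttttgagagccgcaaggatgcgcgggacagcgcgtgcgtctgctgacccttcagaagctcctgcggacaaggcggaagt
The Zfp131 run held 1 CCAAT box, on the opposite strand, 1 GC box and 29 CpG. The run before its downstream start, not shown, held 0 CCAAT boxes, 1 GC box and 38 CpG. The Zfp212 run held none of the 3 motifs and 12 CpG, and the Zfp709 run none and 17 CpG. Over the 282 runs held for 226 Zfp genes, 43.3% had a CCAAT box, 41.5% a GC box and 6.74% a TATA box, against 35.0%, 45.8% and 10.9% of the 16534 runs of all genes on the array. The median number of CpG was 12 for the Zfp genes and 11 for all genes. Among the 23 runs of 15 Zfp genes above background on some array, 8 had a CCAAT box, 12 a GC box and 1 a TATA box. Their median was 14 CpG. Runs of the same gene can overlap, as those of Zfp346 do, so a motif can be counted more than once. A match to these letters is a description of the sequence only.

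Few Zfp genes gave a signal above background. On NSN-a there was 1 of 276 (0.362%), against a background over all genes of 1.05%, and on NSN-b there were 4 (1.45%), against 1.11%. On 2-cell ctrl there were 15 (5.43%), against 5.61% of all genes. Zfp709 alone was above background on both 2-cell NSN arrays (0.362% of the Zfp genes, and 0.856% of all genes). On at least 1 array there were 16 (5.80%, and 5.95% of all genes), so the share of Zfp genes with a measured signal lay near that of the whole array. Of these 16, Zfp709 was above on all 3 arrays, Zfp346 and Zfp661 on NSN-b and 2-cell ctrl, Zfp317 on NSN-b only, and the other 12 on 2-cell ctrl only. Since a gene enters this last set through a high control signal, its lower 2-cell NSN signals are no separate evidence of a direction.

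**Figure D1:**
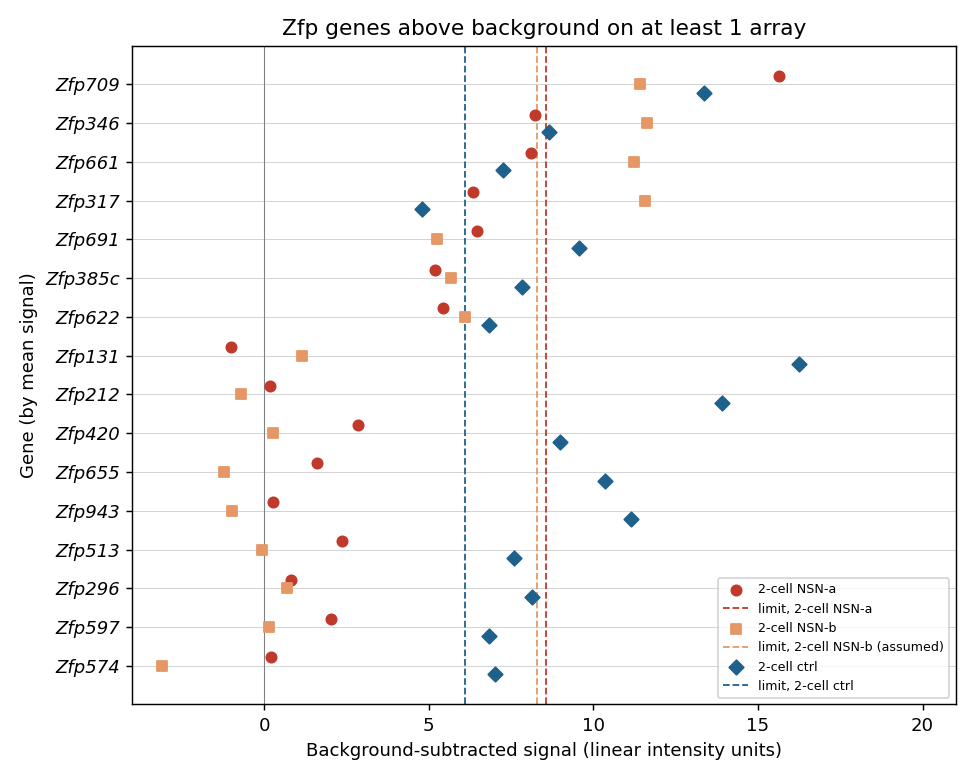
Background-subtracted signal (linear intensity units, horizontal axis) of the 16 Zfp genes above background on at least 1 array (vertical axis, ordered by mean signal), with a circle for NSN-a, a square for NSN-b, a diamond for 2-cell ctrl and dashed lines at the limit of each array. Zfp709 lies beyond all 3 limits, whereas Zfp131 and Zfp212 have control signals of 16.2 and 13.9 and 2-cell NSN signals around 0.

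Zfp709 was the one member measured on every array. Its signal was 15.6 on NSN-a and 11.4 on NSN-b, against 13.4 on 2-cell ctrl, so the control value lay between both 2-cell NSN values. The log2 difference was −0.0009 with a standard error of 0.255 (limma, adjusted p = 0.997 over the 136 probes above background on all arrays). In that fit 90 of the 136 probes (66.2%) had an adjusted p under 0.05, 59 of them higher and 31 lower in 2-cell NSN. Only probes above background on all arrays entered, which leaves out probes lost in 2-cell NSN, so this split gives no direction. This fit had 1 residual degree of freedom, from the 2-cell NSN arrays. The value hung on the scaling between arrays: after quantile normalization the log2 difference of Zfp709 was 1.85 (limma, adjusted p = 0.0404), and after dividing the 2-cell NSN signals by their median ratio to the control (1.43 and 1.39) it was −0.50 (limma, adjusted p = 0.212). That median ratio was taken over the 136 probes above background on all arrays, and not over the whole array. The other 3 probes of Zfp709 were below background throughout, at −3.01 to 1.35 on NSN-a, −4.26 to 2.13 on NSN-b and −0.350 to 0.849 on 2-cell ctrl.

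Zfp131, a BTB-domain zinc finger protein of the nucleus, was above background in the control at both of its probes. The signals of the chosen probe were −0.997 on NSN-a and 1.17 on NSN-b, against 16.2 on 2-cell ctrl. Both 2-cell NSN values were below background, and the control value was well apart from them. Setting the 2-cell NSN signals to their limits, Zfp131 was at least 1.93-fold lower in 2-cell NSN. Its second probe gave 0.258 and −3.19 on the 2-cell NSN arrays, against 12.8 on 2-cell ctrl, and was thus above background in the control too. Zfp131 was the only one of the 8 control-detected members with several probes for which a second probe was also above background in the control (12.5%), against 67 of 390 such genes over the whole array (17.2%).

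Zfp212 gave 0.189 on NSN-a and −0.696 on NSN-b, against 13.9 on 2-cell ctrl, at least 1.65-fold lower in 2-cell NSN. Its 4 further probes were below background on all arrays, with control signals of 2.87, 2.26, −0.0428 and 0.137, so the control level of Zfp212 rested on 1 of 5 probes. Zfp131 and Zfp212 were the 2 members past the 1.5-fold rule of the methods, out of 15 that reached background in 2-cell ctrl or on the 2-cell NSN pair. None was past it in the opposite direction and 13 were not called. Over all genes 422 of 949 (44.5%) were past the rule on the lower side in 2-cell NSN and 79 (8.32%) on the higher side. Most of these 15 members had control signals too near the 2-cell NSN limits for a 1.5-fold bound to be reached, and a member that was not called is not shown to be equal in both groups. After quantile normalization 0 members were lower and 3 higher (Zfp346, Zfp661 and Zfp709), against 84 (8.85%) and 151 (15.9%) of 949 over all genes, and after the rescaling by the median ratio 6 members were lower and 0 higher, against 573 (60.4%) and 33 (3.48%) of 949. The direction of the calls therefore depended on how the arrays were scaled, for all genes as for the Zfp genes.

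Another 7 members, above background on 2-cell ctrl only, had 2-cell NSN signals far below the limits but no 1.5-fold bound, or no bound at all. Zfp943 gave 0.284 and −0.978 on the 2-cell NSN arrays, against 11.1 on 2-cell ctrl, at least 1.32-fold lower in 2-cell NSN. Its second probe gave 2.44 and 2.11, against 5.51 on 2-cell ctrl, just under the control limit. Zfp655, whose human counterpart ZNF655 is described as a partner of the signalling protein Vav1, gave 1.60 and −1.22, against 10.4 on 2-cell ctrl, at least 1.23-fold lower. Zfp420, a KRAB zinc finger protein, gave 2.85 and 0.286, against 9.0 on 2-cell ctrl, at least 1.07-fold lower. In each of these 3 genes both 2-cell NSN signals were below background and the control signal lay above them.

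Zfp296, a zinc finger protein of germ cells and pluripotent cells, gave 0.819 and 0.710 on the 2-cell NSN arrays, against 8.15 on 2-cell ctrl. Zfp513, whose human counterpart has been linked to retinal degeneration, gave 2.37 and −0.0642, against 7.59 on 2-cell ctrl. Zfp597, the mouse counterpart of an imprinted human gene, gave 2.03 and 0.140, against 6.85 on 2-cell ctrl. Zfp574 gave 0.221 and −3.09, against 7.0 on 2-cell ctrl. The control signals of these 4 genes lay between the control limit and the higher limits of the 2-cell NSN arrays, where no fold can be given at the limits used. With the lower limits of a detection p value of 0.05 these 4 genes had bounds too. They were at least 2.51-fold (Zfp296), 2.34-fold (Zfp513), 2.11-fold (Zfp597) and 2.16-fold (Zfp574) lower in 2-cell NSN. The bounds of Zfp131 and Zfp212 moved to 5.01-fold and 4.30-fold. At those limits 6 other members were called higher in 2-cell NSN, and they are named below. For 9 of the 12 genes above background in 2-cell ctrl only, the mean 2-cell NSN signal was under 2. All 12 were picked by their control signal on 1 array, so these gaps and bounds are no separate evidence of a direction.

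The other 3 genes of that set had 2-cell NSN signals over 5, near the limits rather than near 0. Zfp691 gave 6.46 and 5.25 on the 2-cell NSN arrays, against 9.58 on 2-cell ctrl, at least 1.14-fold lower. Zfp385c, a relative of the RNA-binding protein Zfp385a, gave 5.20 and 5.68, against 7.84 on 2-cell ctrl. Zfp622, known from human and yeast as a factor of late maturation of the large ribosomal subunit, gave 5.43 and 6.10, against 6.82 on 2-cell ctrl, with a second probe at −2.03, −0.380 and 0.347 on NSN-a, NSN-b and 2-cell ctrl. Of these 3 genes Zfp691 alone had a control signal above the limits of all arrays.

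Zfp346, Zfp661 and Zfp317 had their highest signal on NSN-b. All 3 are grouped here for passing the limit on NSN-b but not on NSN-a, so this is no separate evidence of a direction. Zfp346 (JAZ), which binds double-stranded RNA, gave 8.23 on NSN-a and 11.6 on NSN-b, against 8.65 on 2-cell ctrl, so the control lay between both 2-cell NSN arrays. Zfp661, a KRAB zinc finger protein that in mouse acts at CTCF sites of the protocadherin genes, gave 8.11 and 11.2, against 7.27 on 2-cell ctrl. Zfp317 gave 6.33 and 11.6, against 4.79 on 2-cell ctrl. The control was the lowest array for Zfp661 and Zfp317, but on NSN-a all 3 genes were below the limit, and none met the fold rule. With NSN-b alone Zfp317 and Zfp661 were past 1.5-fold higher, 2 of 16 members, against 90 of 973 over all genes. With NSN-a alone 0 of 15 members were, against 89 of 964 over all genes. Zfp346 and Zfp317 each had 2 further probes, all below background on every array, and Zfp661 had 1 probe.

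**Figure D2:**
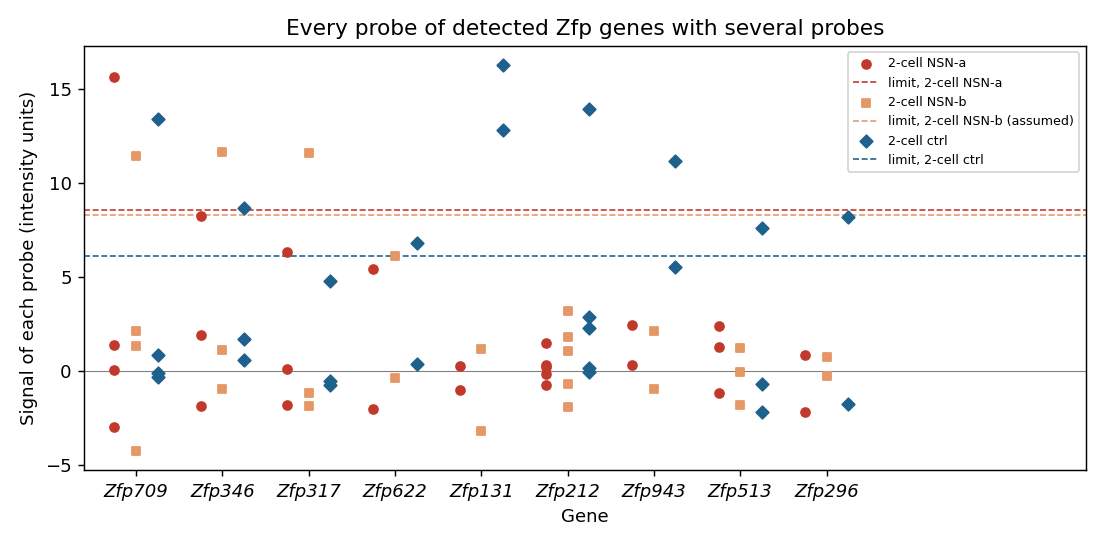
Signal of each probe (intensity units, vertical axis) for the 9 detected Zfp genes with more than 1 probe (horizontal axis), with a circle for NSN-a, a square for NSN-b, a diamond for 2-cell ctrl and dashed lines at the limits. Zfp131 has both probes above the control limit in 2-cell ctrl (16.2 and 12.8), whereas the other 8 genes each have 1 bright probe and others below background.

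A high control signal was seldom shared by a second probe, among the Zfp genes (1 of 8, 12.5%) as over the whole array (67 of 390, 17.2%). The chosen probe is by rule the brightest of its gene, which favours such a contrast. Of the 16 detected members 9 had several probes and 7 had 1. No member was above background only at a probe other than the chosen one. The probes of a gene can lie in different exons or transcript ends and differ in how well they bind, so a difference between probes is not one in transcript level.

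The 260 members above background on no array gave signals from −4.67 to 7.45 on NSN-a (median 0.460), from −3.77 to 7.73 on NSN-b (median 0.334) and from −3.67 to 5.76 on 2-cell ctrl (median 0.156). Of all 276 members 37 were negative on all 3 arrays and 187 on at least 1. The medians over all members were 0.488, 0.365 and 0.354 on NSN-a, NSN-b and 2-cell ctrl, against 0.372, 0.352 and 0.368 over all genes. The control signal was above both 2-cell NSN signals for 91 members (33.0%), against 35.0% of all genes, and below both for 83 (30.1%), against 31.7% of all genes, with 102 in between. For the 260 undetected members these counts were 79 and 81. The limit on 2-cell ctrl was lower than those on the 2-cell NSN arrays, so being undetected removed more members with a high control signal. The counts of undetected members therefore give no direction. Across the 276 members the Pearson correlation of the signals was 0.606 between both 2-cell NSN arrays (0.465 over the 260 undetected members), 0.454 between NSN-a and 2-cell ctrl and 0.380 between NSN-b and 2-cell ctrl. These correlations run across genes on arrays that share probe sequences and background, and genes are not independent replicates.

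**Figure D3:**
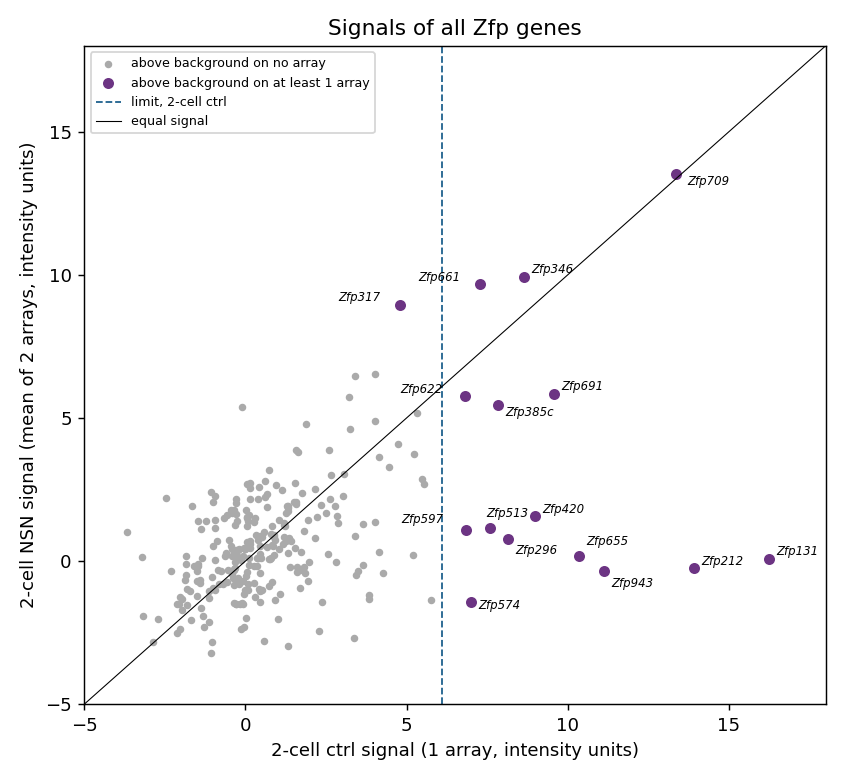
Mean signal of the 2 2-cell NSN arrays (vertical axis, intensity units) against the signal of the 2-cell ctrl array (horizontal axis, intensity units) for all 276 Zfp genes, with named points for the 16 above background on at least 1 array, a dashed line at the control limit and a solid line at equal signal. The 260 other genes form a cloud around 0, and 9 of the named genes lie to the right of the control limit with a mean 2-cell NSN signal under 2.

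The gap around the limit was narrow on 2-cell ctrl and wider on both 2-cell NSN arrays. On 2-cell ctrl the lowest members above the limit were Zfp622 (6.82) and Zfp597 (6.85), and the highest below it were Zfp809 (5.76), Zfp101 (5.53) and Zfp277 (5.47). On NSN-a Zfp709 (15.6) was the one above the limit, and Zfp346 (8.23), Zfp661 (8.11) and Zfp428 (7.45) were the nearest below it. On NSN-b the lowest members above the limit were Zfp661 (11.2) and Zfp709 (11.4), and the highest below it were Zfp329 (7.73), Zfp628 (6.72) and Zfp979 (6.18). At a detection p value of 0.05 the numbers above background were 31 on NSN-a (11.2%, and 9.03% of all genes), 30 on NSN-b (10.9%, and 9.54%) and 43 on 2-cell ctrl (15.6%, and 13.9%), with 12 of 47 members past 1.5-fold lower and 6 of 47 past it higher in 2-cell NSN. Over all genes these were 917 (36.9%) and 212 (8.53%) of 2485. The 6 higher members were Zfp329 (1.86-fold), Zfp317 (1.79-fold), Zfp979 (1.78-fold), Zfp428 (1.61-fold), Zfp451 (at least 1.73-fold) and Zfp609 (at least 1.59-fold). The control signals of Zfp451 and Zfp609 were below their limit.

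A further set of Zfp genes with well known roles was looked up by name whatever their signal. All 8 found were below background on every array, as were 260 of the 276 members, and Zfp296, described above, was not in this set. Zfp445, which protects imprints, gave 3.73 and 0.610 on the 2-cell NSN arrays, against 0.386 on 2-cell ctrl. Zfp568, which represses a placental transcript of Igf2, gave −0.637 and −2.39, against −0.0661 on 2-cell ctrl. Zfp809, which silences endogenous retroviruses, gave −3.13 and 0.424, against 5.76 on 2-cell ctrl, the undetected member nearest to the control limit. These are the KRAB members of the group.

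Zfp36 (tristetraprolin), which marks AU-rich mRNAs for decay, gave 4.53 and 3.24 on the 2-cell NSN arrays, against 2.59 on 2-cell ctrl. Zfp281, a transcription factor of pluripotent cells, gave 0.607 and 4.16, against 1.75 on 2-cell ctrl. Zfp207 (BuGZ), which acts at spindle microtubules and kinetochores, gave 0.974 and 0.0521, against 0.849 on 2-cell ctrl. For all of these no level can be stated beyond a bound. Zfp598, a sensor of collided ribosomes, gave −1.13 and 0.544, against −0.537 on 2-cell ctrl, and Zfp830, a nuclear protein of pre-mRNA processing, gave −2.72 and −1.38, against −1.67 on 2-cell ctrl. Zfp57 and Zfp143 were not analysed here, since no probe was found under these symbols.

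Partners of the KRAB zinc finger proteins were read from a list of corepressor and DNA methylation genes, of which 20 of 23 were found. On NSN-a and NSN-b 1 gene each (5.0%) was above background, against 4 on 2-cell ctrl (20.0%). The shares over all genes were 1.05%, 1.11% and 5.61%. All 4 were DNA methylation genes, namely Uhrf1, Dnmt1, Dnmt3l (12.4 in 2-cell ctrl) and Dnmt3b (10.5 in 2-cell ctrl). No other gene of the list was above background on any array, so the share of 20.0% does not describe the corepressor genes. Uhrf1, which brings the maintenance methyltransferase to newly copied DNA, gave 32.5 and 36.4 on the 2-cell NSN arrays, against 116 on 2-cell ctrl, 3.36-fold lower in 2-cell NSN. Dnmt1, that methyltransferase, gave 1.45 and 0.966, against 23.1 on 2-cell ctrl, at least 2.75-fold lower. With these, 2 of the 4 genes of the list above background were past the fold rule on the lower side, near the share of 44.5% over all genes, and none was past it on the higher side (8.32% over all genes). Trim28, the corepressor bound by the KRAB domain, was below background, with 1.14 and −0.0469 on the 2-cell NSN arrays, against 3.25 on 2-cell ctrl, as was the histone methyltransferase Setdb1, with 2.62 and 2.42, against 0.947 on 2-cell ctrl.

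Other families with zinc-binding domains were read in the same way. Of 46 genes named Zbtb, Zscan or Zkscan, which share the C2H2 fingers, none was above background on either 2-cell NSN array, against 4 on 2-cell ctrl (8.70%). Of 62 RING finger genes named Rnf, most of them ubiquitin ligases, 2 were above on each 2-cell NSN array (3.23%), against 7 on 2-cell ctrl (11.3%). Of 55 genes named Zc3h, Zdhhc, Zfyve, Zcchc or Zmym, 1 was above on NSN-a (1.82%) and 0 on NSN-b, against 6 on 2-cell ctrl (10.9%). In each family, as over all genes, more genes were above background on the control array than on either 2-cell NSN array. The Zfp share on 2-cell ctrl (5.43%) was the lowest of the 4 families, but it lay near that of all genes (5.61%). On NSN-b the Zfp share (1.45%, and 1.11% of all genes) was lower only than that of the Rnf genes. These differences were not tested.

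**Figure D4:**
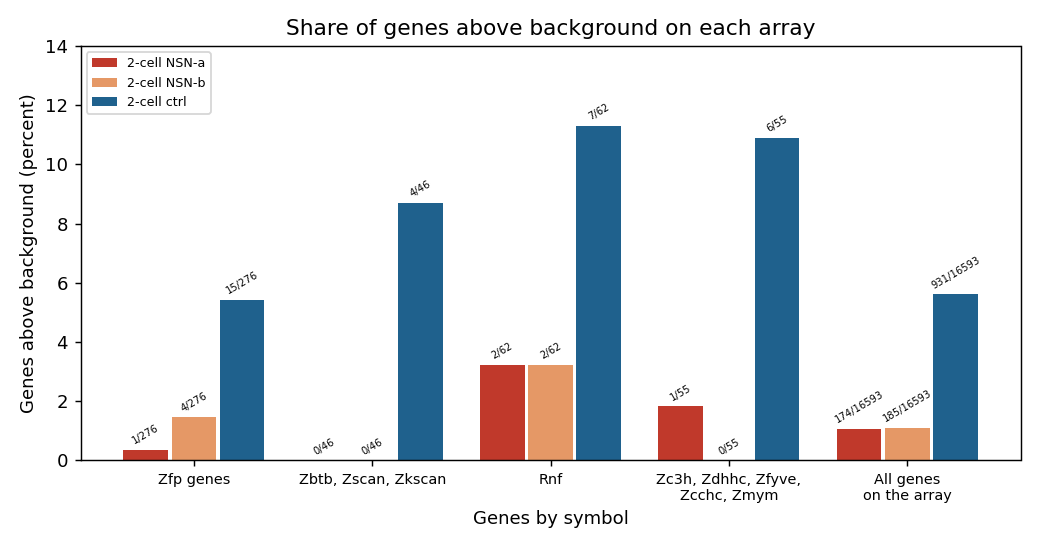
Percent of genes above background (vertical axis, from 0) in the Zfp genes, 3 other families with zinc-binding domains and all genes on the array (horizontal axis), with bars for NSN-a, NSN-b and 2-cell ctrl from left to right and the counts above them. The control bar is the tallest in each family, at 5.43% for the Zfp genes and 5.61% for all genes.

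Zfp genes are known to lie in clusters of neighbouring copies. In the RefSeq order of protein-coding genes 119 of the 276 members (43.1%) lay next to another member. Of the 16 detected members 4 did: Zfp212 lay beside Zfp282 and Zfp956, Zfp420 beside Zfp940 and Zfp27, Zfp597 beside Zfp174 and Zfp943 beside Zfp947. None of the 16 lay next to another detected member. With so few members detected, and 4 of them next to any member, this says little of how the detected genes lie. Probes of close copies can share sequence, and cross-hybridisation between members was not tested.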

How the data were processed

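Total RNA of 2-cell embryos was amplified, labelled with biotin and hybridised to 3 Illumina BeadChips; the methods give 2 rounds of amplification and the labels a single one. The authors deposited intensity values after background subtraction and rank-invariant normalization (BeadStudio 3, per the submitters' processing notes), and the exact scaling between arrays is not given in the sources used here. A second deposited table holds 3 value columns that no sample label names, so it was left out.

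The platform annotation gave 1 symbol for 23978 of 25697 probes, several for 0 and none for 1719, which makes 16593 genes. All 276 Zfp genes matched RefSeq by Entrez ID. The limits at a detection p value of 0.01 were read from 896 rows of a supplementary table whose signals matched exactly 1 probe on 2-cell ctrl and NSN-a within 0.002%. The highest signals with a p value over 0.01 were 8.50 on NSN-a and 6.09 on 2-cell ctrl. The limit of NSN-b was taken from that of NSN-a in proportion to the spread below the median (1.74 against 1.80). Lower signals were raised to the limit, and the difference is the mean log2 value of both 2-cell NSN arrays minus that of 2-cell ctrl. A gene was called at 1.5-fold where it was above background in 2-cell ctrl or on both 2-cell NSN arrays and its brighter group reached background. A fold against a group below its limit is a lower bound, and none is given where the limits alone would set it. limma 3.58.1 (R 4.3.3, intensity trend, Benjamini-Hochberg adjustment) was fitted to the 136 probes above background on all arrays. Counts were made with Python 3.11.15, pandas 2.3.3 and numpy 2.4.6, and plots with matplotlib 3.10.9. The rule and the limma fit were also run on simulated data. Changes were planted there only in genes with a mean signal above that of every Zfp gene. That run therefore says nothing of calls at the signals of the Zfp genes. The number of arrays limits the precision.

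Named are all members above background on at least 1 array and a set fixed by role. The members, lists and tests were chosen with earlier results of these data known. Alternatives were a detection p value of 0.05, limits mirrored from the lower tail (the 1st percentile of each array), any probe or the mean of all probes of a gene, the NSN-a limit for NSN-b, rescaling, quantile normalization, a fold of 2, log2(signal + 16), both 2-cell NSN arrays past the fold, and leaving out a 2-cell NSN array.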

Additional observations from a re-analysis of the deposited data

How the results depend on the processing

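Counts are given as members above background on both 2-cell NSN arrays, above in 2-cell ctrl, lower and higher in 2-cell NSN, which were 1, 15, 2 and 0. At a detection p value of 0.05 they were 17, 43, 12 and 6, and with limits mirrored from the lower tail 10, 41, 10 and 5. Over all genes 917 of 2485 were lower and 212 higher at 0.05, and 768 of 2226 and 184 with the mirrored limits. The mean of all probes gave 0, 9, 1 and 0, with Zfp131 as the lower one (333 of 758 genes, and 60 higher). Rescaling gave 6 lower (Zfp131, Zfp212, Zfp420, Zfp655, Zfp691 and Zfp943). Quantile normalization gave 0 lower and 3 higher, left no fold for those 6 genes, and moved the log2 difference of Zfp709 to 1.85 (limma, adjusted p = 0.0404), the opposite sign to −0.0009. A fold of 2 gave 0 lower (315 of 949 genes, and 34 higher), and log2(signal + 16) gave 4 lower (Zfp131, Zfp212, Zfp655 and Zfp943; 510 of 949 genes, and 29 higher). The cause of these changes was not tested. Any probe of a gene, the NSN-a limit for NSN-b and both arrays past the fold left these counts as they were.

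Leaving out either 2-cell NSN array gave 1 to 4 members above background on the remaining one, 2 to 2 lower and 0 to 2 higher. Without NSN-a there were 4 above background and 2 higher (Zfp317 and Zfp661). Over all genes 427 of 973 were lower and 90 higher without NSN-a, and 413 of 964 and 89 without NSN-b. limma has no residual degree of freedom without one of these arrays and was not run so, and leaving out the control leaves no comparison. No paired analysis was possible because the groups share fewer than 2 replicate numbers. At these signals absence on an array is not shown: an undetected Zfp gene has only the bound of the limit.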
